A study of Saccharomyces cerevisiae with 8 samples.

Results

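Nucleotides 2361 to 2599 of yeast 25S ribosomal RNA (rRNA) cover about the first part of domain V of the large ribosomal subunit. Domain V holds the catalytic centre. The stretch was taken by position, as every row of the deposited table that names 25S rRNA between these numbers, and it comprises 239 of the 3396 nucleotides of 25S and of 5475 in all. 80S ribosomes of Saccharomyces cerevisiae were probed in vitro for 8 min with dimethyl sulfate (DMS) after incubation with a drug, and each condition gave 1 library. Agelastatin A (AglA), which marine sponges make, was used at 0.5 and 1.0 mM. Cycloheximide (CHX), which blocks translation elongation, was used at 10, 50 and 1000 µM, and all drug libraries had 90 mM DMS. These were set against ribosomes with 90 mM DMS and dimethyl sulfoxide (DMSO), and ribosomes with 90 mM DMS and no addition. A last library came from ribosomes without DMS. The labels give neither the yeast strain, nor the solvent of either drug, nor whether the libraries came from separate ribosome preparations.

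On adenosine and cytidine, DMS adds a methyl group to the edge used for base pairing, unless a partner base or a bound molecule covers that edge. A reverse transcriptase that passes over the methyl group leaves a mismatch, and the mutation rate measures how often reads carry one at a given nucleotide. This stretch of domain V starts next to the peptidyl transferase ring, the ring of rRNA around the site of peptide bond formation, of which nucleotides 2397 to 2404 are the 5′ strand. It then runs out into the L1 stalk, a mobile arm that carries ribosomal protein uL1, contacts tRNA in the exit (E) site and moves as that tRNA leaves. CHX is known to bind in the E site, and inhibitors that act at the catalytic centre contact bases of the ring.

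The sequence of the stretch, from the base column of the deposited table, is shown because it places the reactive bases. It is written 5′ to 3′ with T for U, in 5 segments, and capitals mark the 30 adenosines and cytidines that averaged at least 0.5% across the 7 libraries with DMS. It lies on the minus strand of chrXII:452583-452821 (R64 assembly, which sacCer3 also denotes) within RDN25-1 (451786 to 455181), a noncoding gene for 25S rRNA. Since rDNA is repeated, the position stands for all copies. The bounds of the segments other than the ring strand were placed from memory of the bacterial helix scheme and are approximate, and the L1 stalk stretch also holds nucleotides beyond the stalk itself.
Upstream strand (2361 to 2396): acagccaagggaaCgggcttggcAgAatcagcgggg
Ring strand (2397 to 2404): aAagAAgA
Connecting strand (2405 to 2434): ccctgttgagcttgactctAgtttgacatt
L1 stalk stretch (2435 to 2564): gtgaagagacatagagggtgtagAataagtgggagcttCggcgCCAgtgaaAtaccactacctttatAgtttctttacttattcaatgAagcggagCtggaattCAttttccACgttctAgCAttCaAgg
Return strand (2565 to 2599): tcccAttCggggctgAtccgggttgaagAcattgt

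All 239 nucleotides had a rate above 0 in every library. Depth is unknown because the files hold fractions alone, so rates carry no counting interval, and single libraries leave each difference without a replicate check. The 514 A and C nucleotides of all rRNAs that passed the filter of 0.5% are called tested below. On the log2 scale (rate as a fraction plus 0.001) the median of these 514 nucleotides differed from that with DMSO by -0.06 and -0.05 at the lower and higher AglA dose, and by -0.32, -0.12 and -0.20 at 10, 50 and 1000 µM CHX. Log2 ratios below are centred, that is, relative to each library's own median, and rates are as deposited.

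With DMS, reactive bases fell into several clusters separated by long quiet runs. Of the 110 A and C nucleotides in the stretch, 30 passed the filter (27.3%), against 514 of 2529 (20.3%) in all rRNAs. They were 20 of 64 adenosines and 10 of 46 cytidines. With DMS and no addition the rates of the 30 ran from 0.695% (A2424) to 27.3% (A2401) with a median of 2.65%, against 0.0251% to 0.160% with a median of 0.0641% without DMS. The filter kept bases that are high with DMS, so these levels and the median ratio of 54.6 with DMS over without are a description of the bases it kept. Over all 110 A and C nucleotides, whatever their rate, the ratio ran from 0.605 to 187 with a median of 3.28. With 0.0001 added to each rate, 20 of all 64 adenosines and 9 of all 46 cytidines were at least 10-fold higher with DMS, while 0 of 66 guanosines and 0 of 63 uridines met this bound. In all rRNAs the shares past this size were 27% of adenosines, 9.85% of cytidines, 0.803% of guanosines and 0.414% of uridines. The other 80 A and C nucleotides had mean rates of 0.0405% to 0.495%, with a median of 0.109%. Those nearest the filter were C2383 (0.476%) and C2392 (0.495%) outside it, and A2547 (0.627%) and A2424 (0.672%) inside it.

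**Figure D1:**
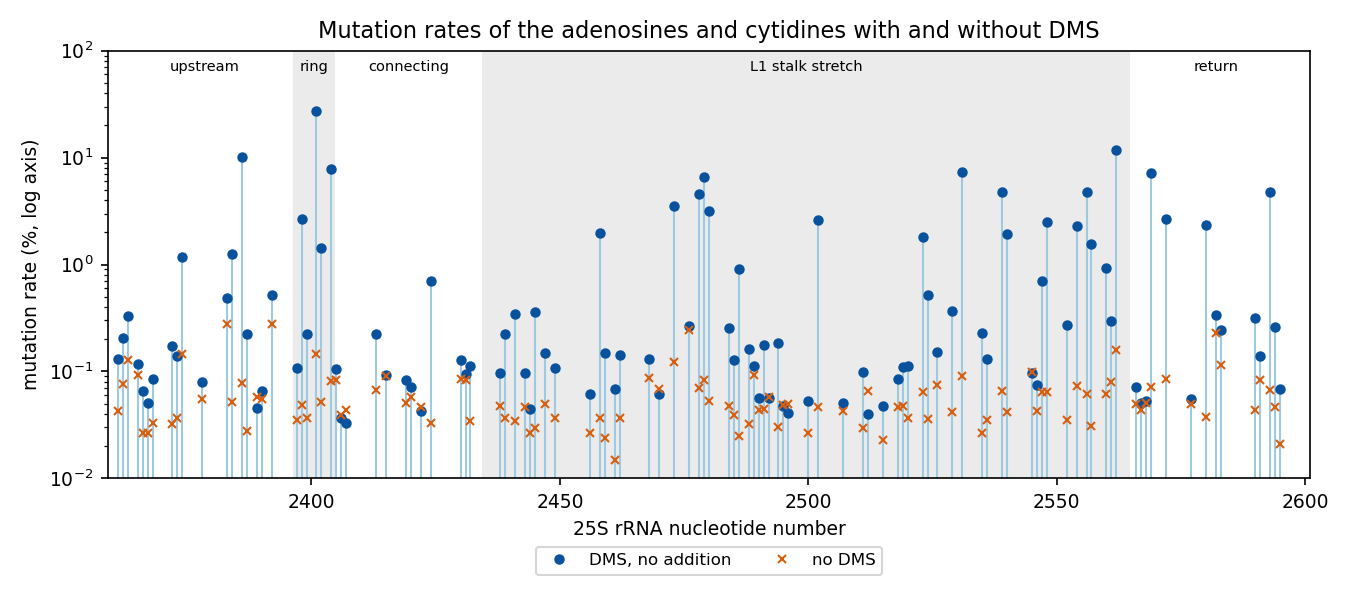
Mutation rate in percent (log axis) of each adenosine and cytidine against its 25S nucleotide number, with DMS and no addition (filled points on stems) and without DMS (crosses), 1 library each; grey bands separate the 5 segments. The highest point is nucleotide 2401 of the ring strand at 27.3%, and the connecting strand holds 1 tested nucleotide, at 0.695%.

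The ring strand was the most densely reactive segment, with 4 of its 6 adenosines tested, while the connecting strand had 1 of 12 A and C nucleotides tested. The upstream strand had 3 of 18 tested, the L1 stalk stretch 18 of 60 and the return strand 4 of 14. In the upstream strand, A2386 had 10.0% with DMS and no addition, beside C2374 with 1.18% and A2384 with 1.26%. The 7 tested nucleotides at or above 5% were A2401 (27.3%), A2562 (11.8%), A2386 (10.0%), A2404 (7.91%), C2531 (7.30%), A2569 (7.15%) and C2479 (6.64%), against 87 of the 514 in all rRNAs. A2401 ranked 12 among the 514. In the L1 stalk stretch, the reactive bases were grouped at C2473 to A2486, where C2478, C2479 and A2480 are adjacent, and at A2523 to A2562, with A2458 and A2502 standing alone between quiet runs.

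The reactive bases were then set against a fold predicted from sequence alone. RNAfold, which finds the structure of minimum free energy without protein or tertiary contacts, was run on the 239 nucleotides. In this prediction 22 of 48 unpaired A and C nucleotides had at least 0.5% with DMS and no addition, against 10 of 62 paired ones. The medians were 0.293% for unpaired and 0.146% for paired adenosines, and 0.299% and 0.0715% for unpaired and paired cytidines. The prediction held 5 hairpin loops (2370 to 2377, 2397 to 2404, 2471 to 2474, 2537 to 2542 and 2569 to 2572), and 10 of the 14 A and C nucleotides in them were tested. One of these loops is exactly the ring strand, but in the ribosome the strands beside it are known to pair with distant parts of domain V and not with each other, so the predicted stem there is not the known one. A fold of the whole 25S sequence gave the same pairing state and partner to 211 of the 239 nucleotides.

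**Figure D2:**
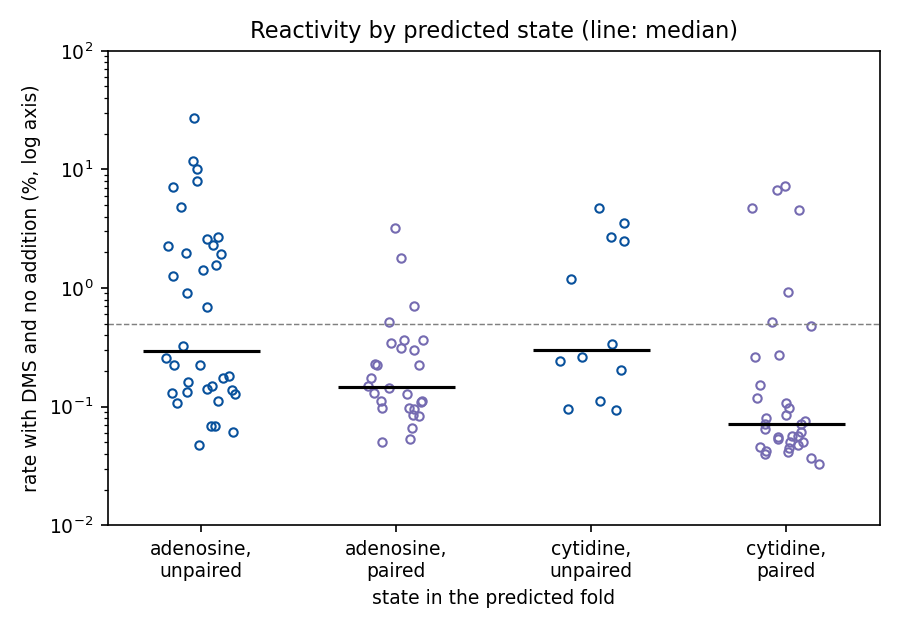
Mutation rate in percent (log axis) with DMS and no addition for each adenosine and cytidine of the stretch, by its state in the predicted fold; horizontal lines are medians and the dashed line marks 0.5%. Medians were 0.293% and 0.146% for unpaired and paired adenosines, and 4 paired cytidines lay above 2%.

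Some bases predicted to be paired were among the most reactive. The 8 tested nucleotides with a predicted partner were C2478, C2479, A2480, A2523, C2531, A2547, C2556 and C2560. Of these, C2531 had 7.30%, C2479 had 6.64%, C2556 had 4.75% and C2478 had 4.54% with DMS and no addition. Their predicted partners were 2549 for C2531, 2465 for C2479, 2525 for C2556 and 2466 for C2478, the same in both folds. C2478 to A2480 lie in the L1 stalk stretch, in a predicted stem of 3 pairs near the loop at 2471 to 2474.

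Among the modified bases of the stretch, listed from memory, are G2395, U2417 and U2421, which carry a methyl group on the ribose, and U2416, a pseudouridine. U2417 was the 1 nucleotide of the stretch with at least 0.5% in the library without DMS. Its rate was 0.922% with DMS and no addition and 0.953% without DMS, and 0.922% to 1.11% over the 7 DMS libraries. U2421 had the next highest rate without DMS, with 0.471% with DMS and no addition and 0.472% without DMS. The median over the 63 uridines was 0.0587% with DMS and no addition and 0.0420% without DMS, so both stood above the median in either library. U2416 had 0.0989% with DMS and no addition and 0.114% without DMS, and G2395 had 0.103% and 0.0791%.

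No tested nucleotide of the stretch changed 2-fold with either drug. The call needed a centred log2 ratio of at least 1 in size of one sign when set against the DMSO and against the no-addition library, and 0 of 30 met it in any of the 5 drug libraries. Over all rRNAs 1 of 514 (0.195%) met it in each drug library, so a count of 0 in 30 is near the background. At a 1.5-fold bound the count was also 0 of 30 in each drug library, where 2 of 514 (0.389%) met it with 50 µM CHX and 1 of 514 (0.195%) in each other drug library. Against DMSO, ratios of the 30 ran from -0.23 (C2560) to 0.42 (A2398) with 0.5 mM AglA and from -0.21 (C2560) to 0.44 (A2398) with 1.0 mM. With CHX they ran from -0.21 (C2478) to 0.62 (A2547) at 10 µM, from -0.27 (C2374) to 0.38 (A2398) at 50 µM and from -0.29 (A2562) to 0.54 (A2398) at 1000 µM. The medians of the 30 against DMSO were -0.03 and -0.02 with AglA and 0.03, -0.06 and -0.09 with CHX, beside medians between -0.02 and 0.01 over the 514.

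Against no addition the extremes lay mostly at other bases. With AglA the ratios ran from -0.43 (A2554) to 0.34 (C2479) at 0.5 mM and from -0.40 (A2554) to 0.57 (C2478) at 1.0 mM. With CHX they ran from -0.17 (A2562) to 0.48 (C2560) at 10 µM, from -0.26 (C2531) to 0.27 (A2398) at 50 µM and from -0.28 (A2562) to 0.43 (A2398) at 1000 µM. The medians were 0.02 and 0.00 with AglA and 0.07, 0.01 and 0.02 with CHX, so all but that at 10 µM CHX had the opposite sign to those against DMSO.

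**Figure D3:**
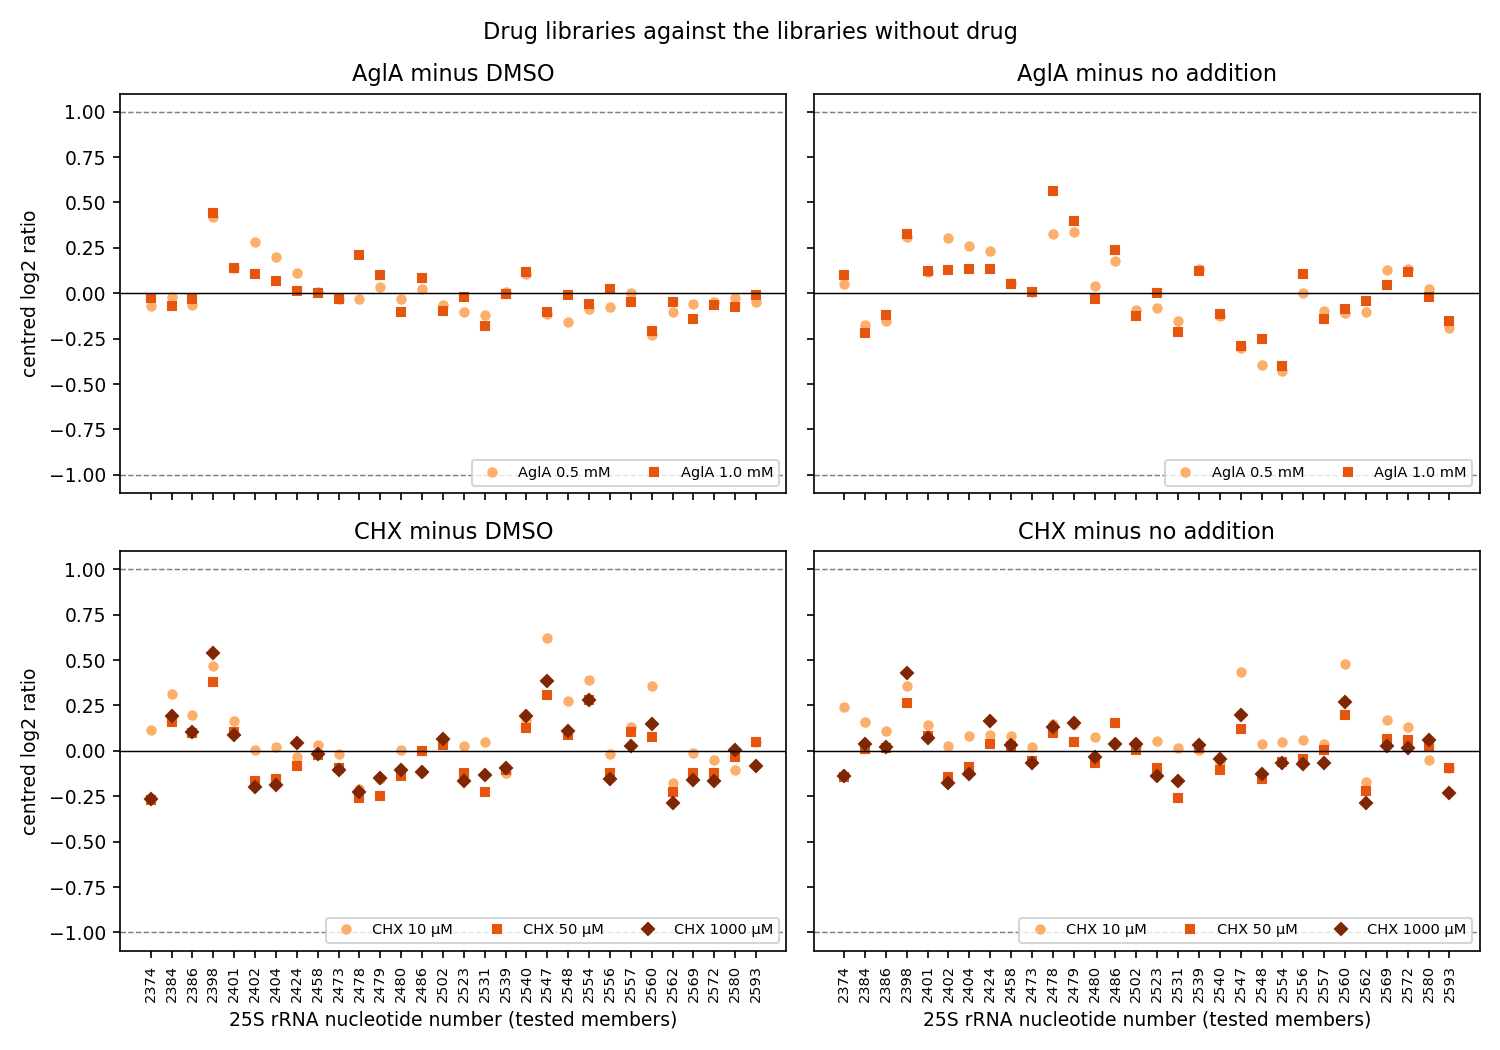
Centred log2 ratio of each drug library to the DMSO library (left) and to the no-addition library (right), AglA above and CHX below, for the 30 tested nucleotides, labelled by 25S number; dashed lines mark 2-fold. All points lie inside the dashed lines, and nucleotide 2398 lies above 0 in all 4 panels.

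The libraries without drug differed by similar amounts. DMSO minus no addition ran from -0.34 (A2554) to 0.36 (C2478) over the 30 nucleotides, with 12 lower and 18 higher with DMSO and 0 past 2-fold (2 of 514, or 0.389%, over all rRNAs). The standard deviation of this difference was 0.16 over the 30 and 0.19 over the 514. C2478 had 5.59% with DMSO and 4.54% with no addition, and its neighbour C2479 had 7.87% and 6.64%. A2554 had 1.69% with DMSO and 2.27% with no addition, and C2548 had 2.03% and 2.52%.

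In the ring strand, the rates of A2398, A2402 and A2404 were above both libraries without drug at both AglA doses. A2398 had 3.07% and 3.15% with AglA (0.5, then 1.0 mM, as in all such pairs below) and 2.65%, 2.86% and 3.04% with CHX (10, 50, then 1000 µM), against 2.38% with DMSO and 2.69% with no addition. At this base both AglA values, and the CHX values at 50 and 1000 µM, were above both libraries without drug. A2402 had 1.63% and 1.44% with AglA and 1.10%, 1.12% and 1.03% with CHX, against 1.39% with DMSO and 1.43% with no addition. For A2402 the AglA values were the highest of the 7 libraries and the CHX values the lowest.

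A2404, the last base of this strand and the counterpart of a flexible adenosine at the entrance of the bacterial exit tunnel, had the same order. It had 8.71% and 8.04% with AglA and 6.43%, 6.54% and 6.03% with CHX, against 7.93% with DMSO and 7.91% with no addition. A2401, the counterpart of an adenosine contacted by macrolide antibiotics in bacteria, had 27.2% and 27.5% with AglA and 23.2%, 25.5% and 23.9% with CHX, against 25.8% with DMSO and 27.3% with no addition. As deposited, its CHX values were below both libraries without drug, and its AglA values were above DMSO and close to no addition. After centring, A2401 was above both at every dose of either drug. Without DMS the 4 bases had 0.0488% to 0.146%. The neighbours A2397 and A2399 were not tested, with mean rates of 0.0991% and 0.221%. G2400, the guanosine that eukaryotes carry where most bacteria have the main macrolide-binding adenosine, had 0.0798% with DMS and no addition and 0.0362% without DMS.

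Rates as deposited were above both libraries without drug at both AglA doses in 3 of the 30 nucleotides, and these 3 were A2398, A2402 and A2404. Over all rRNAs this held for 44 of 514 (8.56%), so 3 of 30 (10%) is near the background. After centring it held for 7 of 30 (23.3%), against 136 of 514 (26.5%), which is not above the background either. The 7 were all 4 tested bases of the ring strand, A2424, C2479 and A2486. With AglA the centred log2 ratios to DMSO were 0.42 and 0.44 for A2398, 0.28 and 0.11 for A2402, 0.20 and 0.07 for A2404, and 0.14 and 0.14 for A2401. The ratio was lower at the higher dose for A2402 and A2404. The count was made after the values were seen, and for the 4 ring strand bases it was 4 against the DMSO library alone and 3 against the no-addition library alone, where A2401 at 0.5 mM was not above it.

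**Figure D4:**
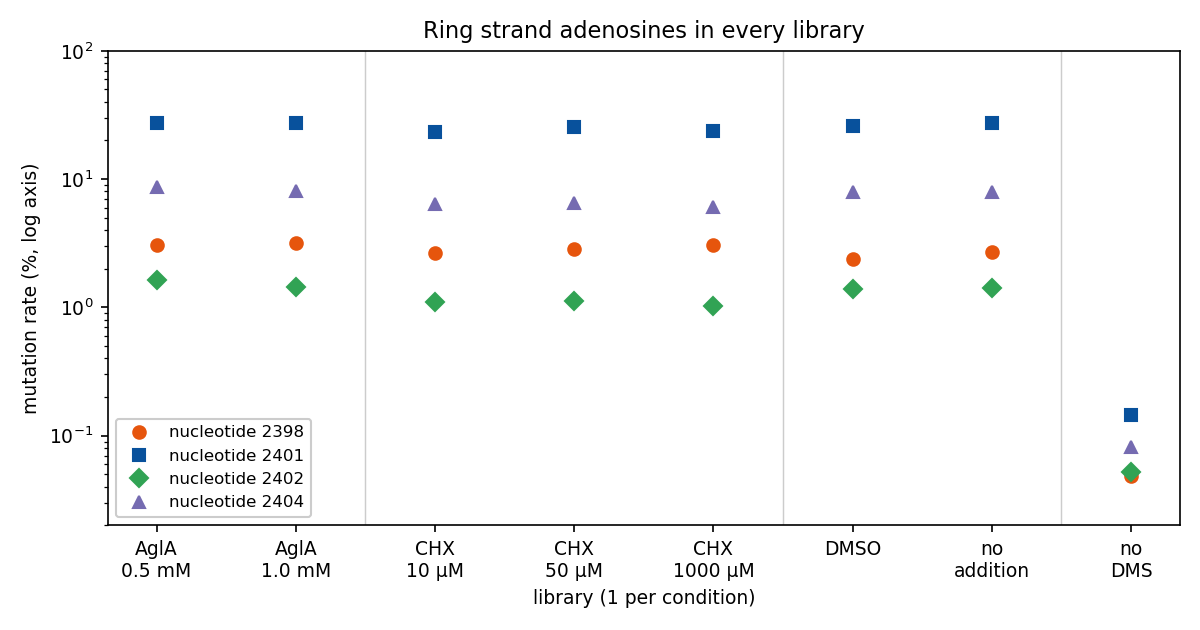
Mutation rate in percent (log axis) of the 4 tested ring strand adenosines in each of the 8 libraries, labelled by 25S number, 1 point per library. In the 7 DMS libraries their order was the same, 2401 above 2404, 2398 and 2402, and without DMS all 4 were below 0.2%.

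As a secondary test, limma was fitted to all 514 nucleotides with AglA (2 libraries), CHX (3) and no drug (2) as classes. Doses of a drug are not replicates of a condition, so its p-values measure the spread among single libraries. AglA and CHX are each set against the same 2 libraries without drug. With AglA limma called 0 of the 30 nucleotides at an adjusted p of 0.05, where 1 of 514 (0.195%) was called over all rRNAs. At an unadjusted p under 0.05 it had 6 of 30, namely A2398, A2401, A2402, C2478, C2479 and A2554, against 59 of 514 (11.5%). A2398 was at 0.37 with AglA (standard error 0.073, adjusted p = 0.0917 in limma). The bases given next are those that passed when the DMSO library was left out, where more nucleotides passed over all rRNAs too. In that fit 1 library stands for no drug. Against that no-addition library AglA was at 0.31 and 0.33 for A2398, 0.33 and 0.57 for C2478, and 0.34 and 0.40 for C2479. It was at -0.39 and -0.25 for C2548, and -0.43 and -0.40 for A2554. DMSO minus no addition was -0.11, 0.36, 0.30, -0.24 and -0.34 at these bases. Against DMSO, AglA was at 0.42 and 0.44 for A2398 and between -0.16 and 0.21 for the other bases named here.

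With CHX limma called 1 of the 30, A2398, which was higher by 0.41 (standard error 0.067, adjusted p = 0.0220, higher in 3 of 3 CHX libraries after centring). Over all rRNAs 4 of 514 (0.778%) were called. Without centring A2398 was at 0.16 (limma adjusted p = 0.121), and its rate at 10 µM CHX was below that of the no-addition library. The call was lost when the DMSO library, either AglA library, or the 10 or 1000 µM CHX library was left out, with differences of 0.35 to 0.46 over the libraries left out in turn. With the no-addition library left out, A2398, A2547, A2554 and A2562 passed, and more nucleotides passed over all rRNAs too. Against the DMSO library alone, CHX was at 0.47, 0.38 and 0.54 for A2398 and 0.62, 0.31 and 0.38 for A2547. It was at 0.39, 0.28 and 0.28 for A2554 and -0.18, -0.23 and -0.29 for A2562. Against no addition A2554 was at 0.05, -0.06 and -0.07, and DMSO minus no addition was -0.34 there. At an unadjusted p under 0.05 limma had A2398, A2401, A2547, C2560 and A2562, 5 of 30 against 87 of 514 (16.9%). Without centring limma called 17 of the 30 lower and 0 higher with CHX, against 255 of 514 (49.6%) lower and 0 higher over all rRNAs, so the counts with CHX depend on whether the lower medians of the CHX libraries are removed.

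In the L1 stalk stretch, A2562 was the 1 nucleotide below both libraries without drug at every CHX dose after centring (44 of 514, or 8.56%, over all rRNAs). A2562 had 10.1% and 10.6% with AglA and 8.05%, 8.91% and 8.09% with CHX, against 11.4% with DMSO and 11.8% with no addition. The CHX values were below all other DMS libraries, with a centred difference of -0.23 in limma (standard error 0.054) that did not pass (adjusted p = 0.0830). As deposited, without centring, 24 of the 30 were below both libraries without drug at every CHX dose, against 378 of 514 (73.5%), and 0 of the 30 were above both, against 3 of 514 (0.584%). After centring 7 of the 30 were above both at every CHX dose, against 116 of 514 (22.6%), namely A2384, A2386, A2398, A2401, A2502, A2547 and C2560.

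The adjacent cytidines C2478 and C2479 of the L1 stalk stretch had their lowest rates with CHX. C2478 had 5.23% and 6.25% with AglA and 3.85%, 4.27% and 4.14% with CHX, against 5.59% with DMSO and 4.54% with no addition. C2479 had 7.71% and 8.14% with AglA and 5.64%, 6.05% and 6.16% with CHX, against 7.87% with DMSO and 6.64% with no addition. As deposited, at both cytidines the AglA values were above no addition and the CHX values below it, and DMSO lay with AglA. After centring, CHX ratios to no addition were above 0 and those to DMSO below 0. The ratios to no addition were 0.15, 0.10 and 0.13 for C2478 and 0.15, 0.05 and 0.15 for C2479. Next to them, A2480 had 3.0% and 2.88% with AglA and 2.57%, 2.66% and 2.58% with CHX, against 3.21% with DMSO and 3.18% with no addition. Here AglA was below both libraries without drug too. The loop base C2473 had 3.23% and 3.26% with AglA and 2.72%, 2.96% and 2.79% with CHX, against 3.46% with DMSO and 3.52% with no addition. A2486 had 0.952% and 1.01% with AglA and 0.702%, 0.893% and 0.771% with CHX, against 0.983% with DMSO and 0.915% with no addition. As deposited, at C2473 all drug values were below both libraries without drug, and at A2486 those of CHX were. After centring, CHX ratios to no addition were 0.02, -0.06 and -0.07 for C2473 and 0.04, 0.15 and 0.04 for A2486.

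With A2502, the bases of the L1 stalk stretch below both libraries without drug in both AglA libraries after centring were C2531, A2547, C2548, A2554, A2557, C2560 and A2562. In the whole stretch there were 11 of 30, against 95 of 514 (18.5%) over all rRNAs. The others were A2386 and A2384 of the upstream strand and A2593 of the return strand. As deposited, 18 of 30 were below both, against 218 of 514 (42.4%). C2531 had 6.01% and 5.82% with AglA and 5.65%, 5.34% and 5.41% with CHX, against 6.84% with DMSO and 7.30% with no addition. All drug libraries were below both libraries without drug at this base, and its log2 ratios to DMSO with AglA were -0.12 and -0.18.

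Other reactive bases of the stalk stretch had drug values below or among those without drug, as deposited. Such orders include the lower medians of the CHX libraries. Over all rRNAs 378 of 514 (73.5%) were below both libraries without drug at every CHX dose. C2539, in the predicted loop at 2537 to 2542, had 4.80% and 4.81% with AglA and 3.66%, 4.24% and 4.06% with CHX, against 4.99% with DMSO and 4.77% with no addition. C2556 had 4.36% and 4.74% with AglA and 3.80%, 4.05% and 3.76% with CHX, against 4.82% with DMSO and 4.75% with no addition. At both the CHX values were the lowest of the 7 libraries with DMS. C2548 had 1.72% and 1.94% with AglA and 1.97%, 1.97% and 1.90% with CHX, against 2.03% with DMSO and 2.52% with no addition. A2502 had 2.23% and 2.20% with AglA and 2.03%, 2.30% and 2.23% with CHX, against 2.45% with DMSO and 2.61% with no addition. At C2548 and A2502 every drug value was below both libraries without drug. A2557 had 1.34% and 1.30% with AglA and 1.22%, 1.38% and 1.23% with CHX, against 1.40% with DMSO and 1.57% with no addition. A2540 had 1.61% and 1.64% with AglA and 1.40%, 1.57% and 1.55% with CHX, against 1.56% with DMSO and 1.93% with no addition. At A2557 too all drug values were below both libraries without drug, and at A2540 they lay around DMSO and below no addition. A2458 had 1.89% and 1.90% with AglA and 1.60%, 1.77% and 1.68% with CHX, against 1.97% with DMSO and 1.99% with no addition. A2523 had 1.55% and 1.66% with AglA and 1.42%, 1.47% and 1.34% with CHX, against 1.76% with DMSO and 1.80% with no addition. At A2458 and A2523 the CHX values were the lowest, the AglA values next and those without drug the highest.

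In the upstream strand, A2386 had 8.27% and 8.55% with AglA and 8.33%, 8.93% and 8.48% with CHX, against 9.07% with DMSO and 10.0% with no addition. The drug values overlapped with each other and were below both libraries without drug as deposited. After centring, those of CHX were above both at every dose. C2374 had 1.12% and 1.17% with AglA and 1.07%, 0.922% and 0.873% with CHX, against 1.24% with DMSO and 1.18% with no addition. A2424, the 1 tested base of the connecting strand, had 0.755% and 0.707% with AglA and 0.550%, 0.620% and 0.644% with CHX, against 0.729% with DMSO and 0.695% with no addition. At A2424 the CHX values were the lowest of the 7 as deposited. After centring, its CHX ratios to no addition were 0.09, 0.04 and 0.16.

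In the return strand, A2569 was at 7.16% and 6.82% with AglA and 6.19%, 6.58% and 6.06% with CHX, against 7.81% with DMSO and 7.15% with no addition. A2593 had 3.83% and 3.97% with AglA and 3.43%, 3.94% and 3.39% with CHX, against 4.14% with DMSO and 4.80% with no addition. At A2593 all drug values were below both libraries without drug, and at A2569 those of CHX and the 1.0 mM AglA value were. C2572, in the predicted loop at 2569 to 2572, had 2.70% and 2.70% with AglA and 2.25%, 2.46% and 2.25% with CHX, against 2.93% with DMSO and 2.69% with no addition. A2580 had 2.16% and 2.11% with AglA and 1.70%, 2.06% and 2.01% with CHX, against 2.31% with DMSO and 2.32% with no addition. At both bases the CHX values were the lowest of the 7 as deposited. After centring, CHX ratios to no addition were 0.13, 0.06 and 0.01 at C2572 and -0.05, 0.02 and 0.06 at A2580.

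The drugs were also compared with each other. In limma AglA minus CHX was called for 5 of the 30 nucleotides, 4 lower and 1 higher with AglA. Over all rRNAs it was called for 61 of 514 (11.9%), 37 lower (7.2%) and 24 higher (4.67%), and at an unadjusted p under 0.05 the counts were 12 of 30 and 178 of 514 (34.6%). A2547 was lower with AglA by the most, at 0.501% and 0.511% with AglA and 0.740%, 0.672% and 0.674% with CHX, beside 0.580% with DMSO and 0.708% with no addition (AglA minus CHX -0.55, standard error 0.10, limma adjusted p = 0.0198). AglA and CHX values of A2547 did not overlap. C2560 had 0.776% and 0.799% with AglA and 1.00%, 0.941% and 0.938% with CHX, beside 0.973% with DMSO and 0.929% with no addition (-0.41, standard error 0.088, limma adjusted p = 0.0252). Values of the drugs did not overlap at C2560 either, and A2547 is the tested base nearest the filter. Both bases were called on these same values, so the lack of overlap is no separate support.

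A2554 had 1.51% and 1.56% with AglA and 1.79%, 1.90% and 1.79% with CHX, beside 1.69% with DMSO and 2.27% with no addition (-0.39, limma adjusted p = 0.0317). A2384 had 1.00% and 0.978% with AglA and 1.07%, 1.10% and 1.06% with CHX, beside 1.07% with DMSO and 1.26% with no addition (-0.27, limma adjusted p = 0.0489). At A2554 and A2384 too the values of the drugs did not overlap. The same held as deposited at bases not called, such as A2404 and C2539, and its share over all rRNAs was not counted. The 1 nucleotide higher with AglA was A2402 of the ring strand (0.31, standard error 0.081, limma adjusted p = 0.0423), and A2404 was at 0.24 without passing (adjusted p = 0.0550). At A2398, called with CHX against no drug, AglA minus CHX was -0.03 (standard error 0.067, limma adjusted p = 0.757). The calls at A2554 and A2384 were lost without centring, where A2554 was at -0.23 and A2384 at -0.11, while A2547, C2560 and A2402 kept theirs at -0.39, -0.26 and 0.47. Leaving out either AglA library or the 10 µM CHX library removed all 5 calls, and leaving out the 50 or the 1000 µM CHX library left those at A2547 and C2560 (10 of 514, or 1.95%, and 32 of 514, or 6.23%, over all rRNAs). Leaving out either library without drug left the 5 estimates unchanged, since neither library enters AglA minus CHX. Such a fit has 1 library without drug, so the spread between DMSO and no addition no longer enters its p-values. More nucleotides, in the stretch and over all rRNAs, passed in such fits than in the fit to all libraries.

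The difference between the drugs ran alongside the difference between the libraries without drug, which share no library with it. Over the 30 nucleotides AglA minus CHX and DMSO minus no addition had the same sign in 26, with Pearson's r of 0.67 and Spearman's rho of 0.69 across nucleotides, which are not independent replicates and share each library's centring. Over the 514 nucleotides the sign was shared by 386 (75.1%), with r of 0.46 and rho of 0.69. Of the 5 called, A2384, A2402, A2547 and A2554 had the sign of the DMSO difference, which was -0.15, 0.02, -0.19 and -0.34 at these bases. C2560 had the opposite sign, with a DMSO difference of 0.12. The part of the solvent in these differences was not tested.

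**Figure D5:**
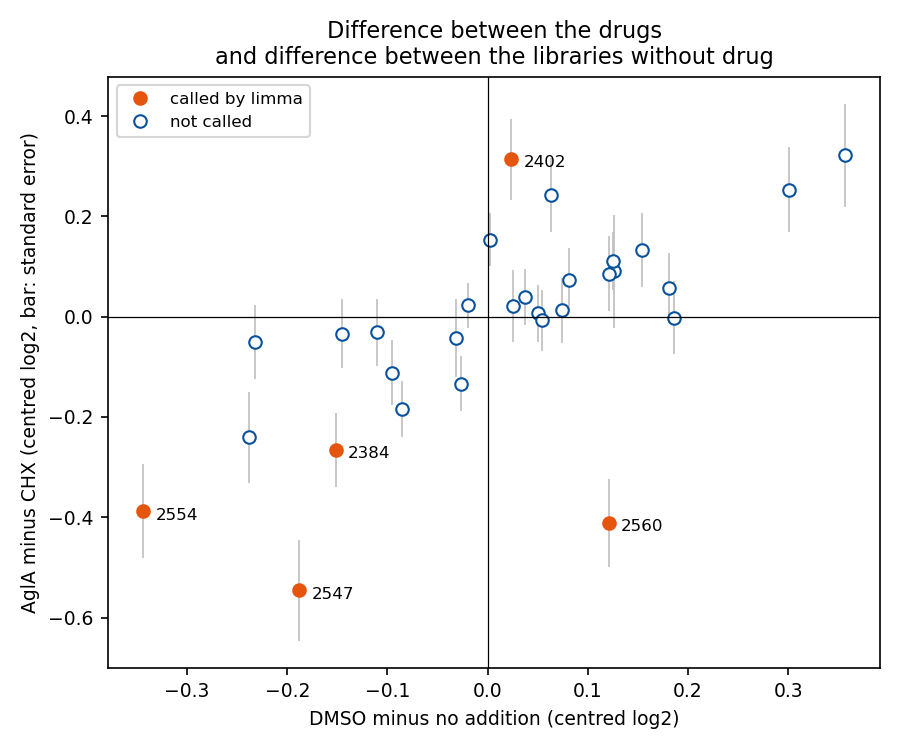
AglA minus CHX (centred log2, limma estimate with its standard error as bar) against DMSO minus no addition (centred log2) for the 30 tested nucleotides; filled points are those called by limma, labelled by 25S number. Nucleotides 2547, 2554 and 2384 lie at the lower left, while 2560 at -0.41 lies at the lower right.

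The order of reactivity along the stretch was closely alike in the 7 libraries with DMS. Spearman's rho of the 30 rates with those of the no-addition library was 0.98 with both AglA doses, 0.99 with each CHX dose and 0.99 with DMSO, as a description across nucleotides. The 30 had median rates of 2.46% and 2.45% with AglA and 2.14%, 2.38% and 2.24% with CHX, against 2.42% with DMSO and 2.65% with no addition.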

How the data were processed

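Mutation rates of yeast rRNA for 8 libraries stand in 1 deposited table, whose columns were matched to conditions by title. The deposited values are a fraction per nucleotide, printed here as percent. Per the labels' protocols, rRNA was fragmented, size-selected, ligated to a linker and copied with TGIRT-III, and full-length cDNA was kept, so methylation is read as mismatches. Cutadapt, Bowtie2 and sacCer3 appear in the submitters' processing notes. How mismatches were filtered and how deep the libraries were is not given in the sources used here.

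Tested nucleotides were A or C with a mean of at least 0.5% over the 7 DMS libraries (514 in all). Values were log2(fraction + 0.001), centred on each library's median over them, which understates change at low rates. limma 3.58.1 (R 4.3.3, eBayes with trend, 4 residual degrees of freedom, Benjamini-Hochberg at 0.05) was fitted to all 514. The fit was run on simulated data with independent noise in each library. Of 20 nucleotides lowered by 0.5 log2, limma called 16 with AglA and 19 with CHX. It called 3 of 454 unchanged nucleotides with each drug. This simulation could not test differences shared between libraries or the use of doses as replicates. Doses of a drug stood in for replicates. RNAfold 2.7.2 gave the folds, and other steps used pandas 2.3.3 and numpy 2.4.6 in Python 3.11.15, with figures from matplotlib 3.10.9. Genome positions were computed from the RefSeq gene table, without the genome sequence.

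Members and lists were chosen with earlier results of these data known. By rule, the text could name every tested nucleotide, with all its values for the ring strand, the 10 highest with no addition, those called and up to 5 per direction and drug of one sign at every dose against both libraries without drug. It also named those of at least 0.5% without DMS, G and U of at least 0.5% and 10-fold with DMS after 0.0001 was added (none), and those nearest the filter. A2397, A2399, G2400, G2412, G2477 and G2575 were added after their values were seen, and the modified bases were listed from memory. Rates in every DMS library are also printed outside this rule for C2374, A2424, A2458, C2473, C2478, A2480, A2523, A2540, C2548, A2557, C2572 and A2580. Alternatives were other added constants, filters, no centring, rates less those without DMS, single controls, a 1.5-fold rule, no trend, and leaving out each DMS library.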

Additional observations from a re-analysis of the deposited data

Results flagged for a closer look

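In 5 of the 30 nucleotides (16.7%) limma called the difference between the drugs itself (AglA minus CHX, centred log2, adjusted over 514 nucleotides). Over all rRNAs 61 of 514 (11.9%) were called, so such calls were not particular to the stretch. All 5 calls were lost when the library with the lowest CHX dose was left out. In the fit to all libraries the differences were -0.55 at A2547, -0.41 at C2560, -0.39 at A2554, -0.27 at A2384 and 0.31 at A2402. DMSO minus no addition was -0.19, 0.12, -0.34, -0.15 and 0.02 at the same bases, and the part of the solvent was not tested.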

How the results depend on the processing

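The counts of nucleotides past 2-fold stayed at 0 for every drug library, and for DMSO against no addition, under each alternative run. Raising the filter to 2% left 18 tested nucleotides in place of 30, and a bound of 2% in place of 0.5% left 14 reactive bases among those predicted unpaired in place of 22. The limma count with AglA (0) stayed at 0 under every other constant, filter, centring, subtraction and trend setting. It was also 0 without any 1 of the CHX libraries. Leaving out an AglA library or a library without drug leaves 1 in its class, so counts of such fits are not given here. The 0 with AglA did not hold without the DMSO library, for which the differences are given above. The count with CHX (1) was 2 with 0.01 added (3.11% of 514 over all rRNAs) and 17 without centring (49.6%). Without a filter it was 2 of 110 (C2531 and A2562, both lower, in place of A2398), against 1.74% of 2529. It was 0 without the 10 µM or the 1000 µM CHX library (0.584% over all rRNAs in each) and 1 without the 50 µM one (0.973%). The count for AglA minus CHX (5) was 9 with 0.01 added (16.7% over all rRNAs) and 3 when the rate without DMS was first subtracted (7.39%). With the filter at 2% it was 2 of 18, against 22.7% of 207. These were A2386 and A2502, both lower, since none of the 5 passes that filter. Without centring the count was 11 (2 lower and 9 higher, in place of 4 and 1), against 36% of 514. It was 0 without the 10 µM CHX library (0.584%), 2 without the 50 µM one (1.95%) and 2 without the 1000 µM one (6.23%). Without centring the median log2 ratio of the 30 was -0.29 against DMSO and -0.31 against no addition at 10 µM CHX, and -0.29 and -0.24 at 1000 µM. The 6 nucleotides that limma called kept their sign under each alternative that tested them, in 42 cases past the threshold and in 37 not. No paired analysis was possible because each condition had 1 library. Read depth, which sets the precision of low rates, is unknown.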

Other observations

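In the stretch 3 of 66 guanosines had rates of at least 0.5% with DMS and no addition. The share of guanosines past this rate over all rRNAs was not counted. The 3 were G2412 with 0.591%, G2477 with 0.630% and G2575 with 0.654%, against 0.0504%, 0.105% and 0.0568% without DMS. They were named after their values were seen, and the plain ratios with DMS over without were 11.7, 6.0 and 11.5. With 0.0001 added to both rates they were 9.94, 5.57 and 9.95, all under the 10-fold bound used above.

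The cytidines C2383 and C2392, just outside the filter, stood above other cytidines of the stretch in the library without DMS. Both had 0.276% there, with 0.482% and 0.516% with DMS and no addition. The medians over the 46 cytidines were 0.0957% with DMS and no addition and 0.0630% without DMS. Next highest without DMS were C2476 with 0.242% and C2582 with 0.228%.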
